A study of Homo sapiens with 12 samples.

Results

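The 39 genes described here build and control the autophagosome and the lysosome. They were chosen as a named list of symbols, from the ULK kinase complex to lysosomal membrane proteins and proteases. The rule that picks their rows uses no measured value, but the list was chosen with earlier results of these data known. All 39 were found by Ensembl identifier among the 26058 genes of the HEK293 table, and all 39 were among the 22067 genes tested. HEK293 is a human embryonic kidney cell line. Wild-type cells (WT) were compared with a HEK293 derivative in which CRISPR-Cas9 had knocked out both catalytic α subunits of AMPK, the energy-sensing kinase (AMPK KO). Whether the derivative is 1 clone was not given in the sources used here, so a difference between the lines cannot be told apart from other differences between the 2 cultures. Every culture was kept in low serum for 24 h. Cells were given DMSO or 25 µM cordycepin for 20 min and then epidermal growth factor for 30 min more, 50 min in all (DMSO+EGF and cordycepin+EGF). The third treatment was DMSO without EGF (DMSO), for which the labels give 20 min, so that the EGF comparison may also hold a difference in incubation time. Cordycepin, 3′-deoxyadenosine, is an adenosine analogue, and DMSO was its solvent control. No library held cordycepin without EGF. Each of the 6 groups had 2 libraries, numbered replicates 2 and 3, and the EGF dose is not stated here because the sources give different units for it.

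In autophagy a double membrane closes around cytoplasm and fuses with the lysosome, where the content is degraded. The ULK1 kinase complex starts the process, a lipid kinase complex around PIK3C3 (VPS34) and BECN1 marks the membrane, and ATG9A and ATG2 proteins supply lipid. A chain of conjugating enzymes then couples ATG8 proteins, such as LC3B and the GABARAPs, to the membrane, where receptors such as SQSTM1 (p62) bring in cargo. TFEB and TFE3 are transcription factors of autophagy and lysosome genes, and folliculin with its FNIP partners controls whether they enter the nucleus. AMPK is known to phosphorylate ULK1 and other proteins of this machinery when energy runs low, and mTORC1, active in fed cells, restrains the same kinase and the same transcription factors. All values below are RNA levels, which do not report the activity of these proteins.

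Depth was uneven: 11 libraries held between 12.6 M and 26.3 M recovered reads on listed genes, and WT DMSO replicate 3 held 3.99 M, with 1170 genes at 0. Replicates of WT DMSO correlated with r = 0.918 across genes, against 0.961 to 0.977 in the other groups. Over the 39 members the 2 WT DMSO libraries lay 0.432 apart (root mean square difference of log2 values). Replicate 3 lay nearer than that to the means of all 5 other groups (0.251 to 0.392) and replicate 2 to those of 2 groups (0.272 and 0.384), and over all genes both lay nearer to each other group than to each other. A mean of 2 libraries carries less noise than 1 library. Counts of called members that rest on WT DMSO are also given without replicate 3. PRKAA1, the gene of the α1 subunit, held 11.2 to 22.0 RPKM in the 6 WT libraries and 7.20 to 8.68 RPKM in the 6 AMPK KO libraries, and its difference between the lines was -0.96 (SE 0.10, adjusted p = 0.00201) on the log2 scale. PRKAA2, the gene of the α2 subunit, held 6.95 to 12.2 and 5.56 to 7.59 RPKM, with a difference of -0.48 (SE 0.12, adjusted p = 0.055), so RNA of both targets was still read in AMPK KO. Of 6 genes taken as marks of HEK293 cells, VIM, KRT8, KRT18 and CDH2 held 8.26 RPKM or more in every library, whereas NEFM and PAX2 held 0.869 RPKM or less. Of 6 markers of other cell types, PTPRC and VWF held 0.0841 RPKM or less, COL1A1, a fibroblast collagen and the 1 of them tested, held 0.352 to 1.20 RPKM, and CD3E, PECAM1 and ALB were not among the genes listed. RNA came from whole cultures, so a change in the share of cells that express a gene and a change in RNA per cell cannot be told apart.

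Levels are given as RPKM, reads scaled to gene length and library depth, then scaled again so that the upper quartile is the same in every library. They are written for replicate 2 and then replicate 3. Averaged over the 12 libraries, the members ran from TFEB at 0.734 RPKM to LAMP1, a heavily glycosylated protein of the lysosomal membrane, at 46.7 RPKM. The median member held 7.71 RPKM, against 3.63 RPKM for all genes tested. TFEB and ULK2 lay under 1 RPKM, 10 members lay between 1 and 5, 25 between 5 and 20, and LAMP1 and MAP1LC3B (LC3B, 25.3 RPKM) above 20. Within families the members were unequal. TFE3 exceeded TFEB by 13.2 to 29.4 times in every library, ATG2B exceeded ATG2A by 1.05 to 2.96 times, FNIP1 exceeded FNIP2 by 1.25 to 2.09 times and LAMP1 exceeded LAMP2 by 2.23 to 5.55 times. Among the 4 ATG8 genes, MAP1LC3B took 34.6% to 51.0% of the summed RPKM. Exons of 16 members share positions with another listed gene, 13 of them with genes on the opposite strand alone, and the strand setting of the counting was not stated. MAP1LC3B also has a near-identical copy, MAP1LC3B2, and ATG12 has pseudogenes among the listed genes, so reads of both may be split between copies. PIK3C3, ATG16L1, ATG4B, ULK2, GABARAPL1, TFE3, LAMP1 and ULK1 share no exon position with another listed gene.

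Sequence near the start is shown for the members with the letters that TFEB and TFE3 are known to bind. It is also shown for PIK3C3 and ULK2, the members with the highest and lowest difference between the lines. RefSeq promoters (GRCh38.p14, 250 bases before to 50 after the start) were matched for 35 of the 39 members by symbol. The E-box CACGTG, which reads the same on both strands, stands in 7.26% of all 35116 promoters of the table and in those of 6 members: LAMP1, MCOLN1, ATG3, CTSD, ATG14 and FNIP1. The longer form TCACGTGA, which contains it, stands in 0.980% of all promoters and in those of LAMP1, MCOLN1 and ATG3. MCOLN1, the gene of the lysosomal calcium channel TRPML1, ATG3 and FNIP1 hold 2 copies of CACGTG each and LAMP1 more. Of LAMP1 the copy at position -1 lies past the stretch shown. Of ATG3 and FNIP1 the stretch around 1 copy is shown, which in ATG3 is the copy at position 6 after the start. In the stretches of LAMP1 (chr13:113297035-113297228, plus strand), MCOLN1 (chr19:7522564-7522623, plus strand), ATG3 (chr3:112561940-112561969, minus strand), CTSD (chr11:1763957-1763986, minus strand), ATG14 (chr14:55411834-55411863, minus strand) and FNIP1 (chr5:131797175-131797204, minus strand), capitals mark CACGTG.
LAMP1: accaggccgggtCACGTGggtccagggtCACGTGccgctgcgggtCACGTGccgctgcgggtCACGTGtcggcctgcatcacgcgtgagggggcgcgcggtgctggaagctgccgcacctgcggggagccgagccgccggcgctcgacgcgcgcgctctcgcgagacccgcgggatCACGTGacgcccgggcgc
MCOLN1: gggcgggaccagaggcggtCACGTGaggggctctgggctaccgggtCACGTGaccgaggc
ATG3: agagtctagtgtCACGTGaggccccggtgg
CTSD: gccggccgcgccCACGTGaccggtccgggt
ATG14: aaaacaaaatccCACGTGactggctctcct
FNIP1: ccccgcccctgcCACGTGacgggacccgcc

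PIK3C3, ATG16L1, ATG4B and ULK2, the 4 members called between the lines, hold no CACGTG in these 300 bases, and neither do GABARAPL1 and MAP1LC3B. The GC box GGGCGG was searched on both strands and stands in 45.0% of all promoters and in those of 27 of the 35 matched members, PIK3C3, ATG16L1 and ATG4B among them and ULK2 not. The 200 bases before the start are given for PIK3C3 (chr18:41955034-41955233, plus strand) and ULK2 (chr17:19867937-19868136, minus strand), with GGGCGG in capitals. Their share of G and C is 59.5% in PIK3C3 and 76.5% in ULK2, against a median of 59.0% over all promoters. These letters are a description of the stretch, and binding was not measured.
PIK3C3: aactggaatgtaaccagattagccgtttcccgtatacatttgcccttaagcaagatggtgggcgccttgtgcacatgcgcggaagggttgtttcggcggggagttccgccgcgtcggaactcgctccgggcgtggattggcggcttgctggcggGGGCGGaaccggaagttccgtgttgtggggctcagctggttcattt
ULK2: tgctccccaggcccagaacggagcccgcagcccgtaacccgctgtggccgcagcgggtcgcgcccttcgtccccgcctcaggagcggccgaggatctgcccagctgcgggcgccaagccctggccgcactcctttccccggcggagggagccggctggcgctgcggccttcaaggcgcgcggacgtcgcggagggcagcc

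**Figure D1:**
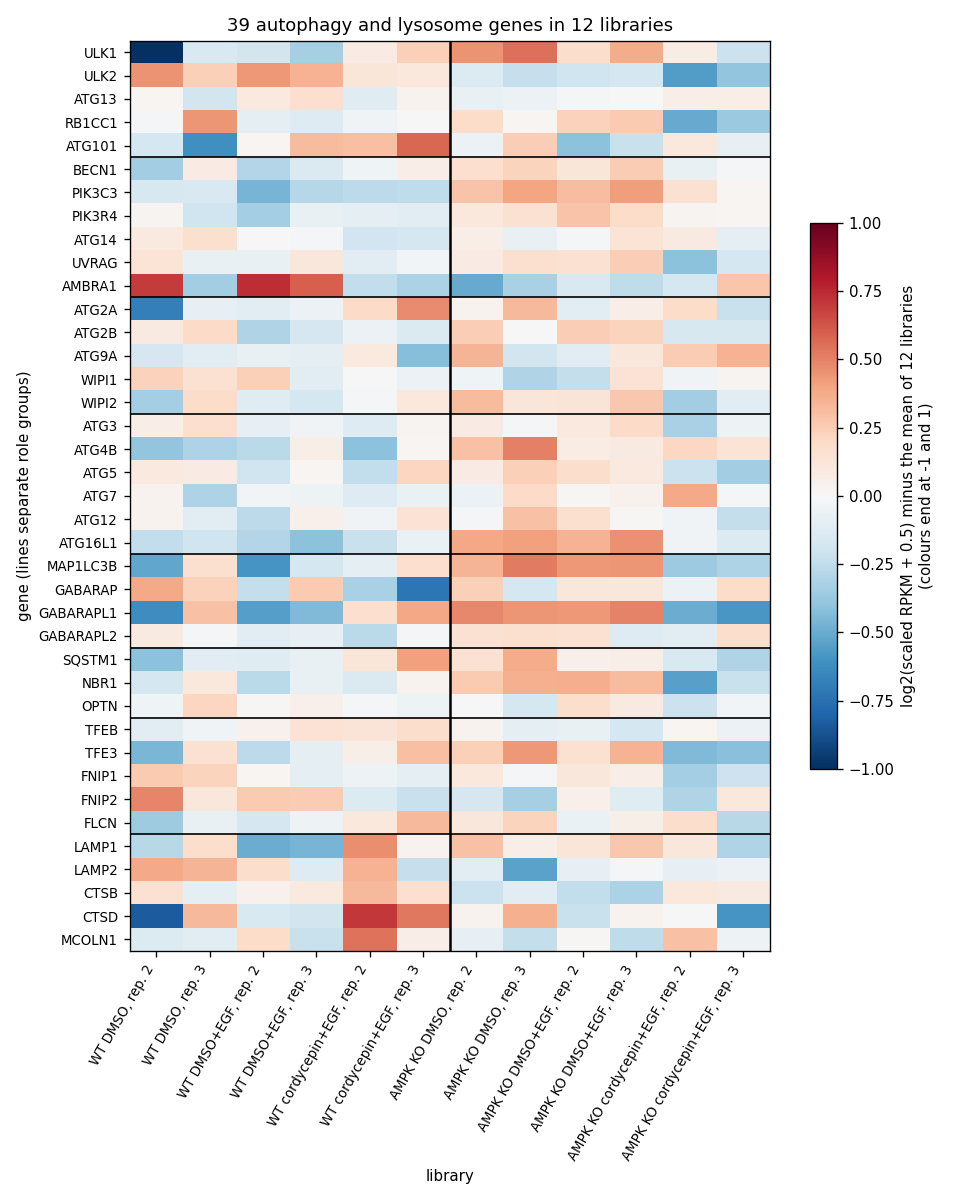
Each row is a member, grouped by role between the black lines, and each column a library, with WT on the left and AMPK KO on the right. Colour gives log2(scaled RPKM + 0.5) minus the mean of the 12 libraries, and GABARAPL1 and MAP1LC3B can be seen to be high in AMPK KO with DMSO or DMSO+EGF and low with cordycepin+EGF.

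The 2 lines were compared first, over the mean of the 3 treatments, to ask which autophagy genes differ where AMPK is missing. Of the 39 members, 3 were higher and 1 was lower in AMPK KO at an adjusted p under 0.05 (limma, Benjamini-Hochberg over all genes tested), against 4.34% of all genes tested. The 3 were PIK3C3, the catalytic subunit of the VPS34 lipid kinase, ATG16L1, which directs the conjugation of ATG8 proteins to the membrane, and ATG4B, the protease that prepares ATG8 proteins and takes them off again. The 1 was ULK2, the paralogue of ULK1. The median log2 fold change of the members was 0.06 (0.00 over all genes), with 24 fitted above 0 and 15 below. PIK3C3, ATG4B and ULK2 were also the only members whose 6 AMPK KO libraries did not overlap the 6 WT libraries, which held for 2.66% of all genes tested.

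PIK3C3 (ENSG00000078142, chromosome 18, 41955234 to 42087830, plus strand) in WT stood at 5.56 and 5.61 RPKM with DMSO, 4.42 and 5.07 with DMSO+EGF and 5.16 and 5.17 with cordycepin+EGF. PIK3C3 in AMPK KO stood at 7.77 and 8.42 RPKM with DMSO, 7.88 and 8.57 with DMSO+EGF and 7.03 and 6.36 with cordycepin+EGF. The lowest AMPK KO library lay above the highest WT library, and within AMPK KO the cordycepin libraries were the lowest. Between the lines PIK3C3 differed by 0.53 (SE 0.07, adjusted p = 0.00599) on the log2 scale. ATG16L1 (ENSG00000085978, chromosome 2, 233210051 to 233295674, plus strand) in WT stood at 6.27 and 6.51 RPKM with DMSO, 6.05 and 5.54 with DMSO+EGF and 6.39 and 7.17 with cordycepin+EGF. ATG16L1 in AMPK KO stood at 10.0 and 10.2 RPKM with DMSO, 9.71 and 10.5 with DMSO+EGF and 7.33 and 6.82 with cordycepin+EGF. The AMPK KO libraries without cordycepin were all above WT, while those with cordycepin overlapped the WT cordycepin libraries. ATG16L1 differed by 0.48 (SE 0.07, adjusted p = 0.00675).

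ATG4B (ENSG00000168397, chromosome 2, 241637213 to 241673857, plus strand) in WT stood at 8.15 and 8.70 RPKM with DMSO, 8.91 and 11.3 with DMSO+EGF and 8.07 and 11.0 with cordycepin+EGF. ATG4B in AMPK KO stood at 13.4 and 15.6 RPKM with DMSO, 11.4 and 11.6 with DMSO+EGF and 12.6 and 12.002 with cordycepin+EGF. The gap between the lines was narrow, with 11.3 RPKM in the highest WT and 11.4 RPKM in the lowest AMPK KO library. ATG4B differed by 0.43 (SE 0.10, adjusted p = 0.039). ULK2 (ENSG00000083290, chromosome 17, 19770829 to 19867936, minus strand) in WT stood at 1.35 and 1.10 RPKM with DMSO, 1.33 and 1.23 with DMSO+EGF and 0.975 and 0.961 with cordycepin+EGF. ULK2 in AMPK KO stood at 0.735 and 0.661 RPKM with DMSO, 0.683 and 0.701 with DMSO+EGF and 0.422 and 0.536 with cordycepin+EGF. All AMPK KO libraries were lower than all WT libraries, and in both lines the cordycepin libraries were the lowest. The log2 fold change of ULK2 was -0.56 (SE 0.10, adjusted p = 0.015), from 44 to 337 reads a library, and at this low level it was -0.41 with a pseudocount of 1, -0.81 with a pseudocount of 0.1 and -0.93 with voom on reads recovered from the RPKM steps.

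PIK3C3 and ATG16L1 kept an adjusted p under 0.05 in each of the 12 fits that left out 1 library and the 10 other alternatives. ULK2 lost it when AMPK KO DMSO replicate 3, AMPK KO DMSO+EGF replicate 2 or 3 or WT DMSO+EGF replicate 2 was left out, with the adjusted p at most 0.060. ATG4B kept it only without WT DMSO replicate 3 or WT cordycepin+EGF replicate 3 among the 12 fits that left out 1 library, with an adjusted p of up to 0.12, and it lost the call with unscaled RPKM and without a trend in the variance. Without WT DMSO replicate 3, 10 members were called, beside 13.1% of all genes. The 10 were the 4 above and ULK1, BECN1, MAP1LC3B and GABARAPL1, higher in AMPK KO, and AMBRA1 and CTSB, lower. With limma voom on reads recovered from the RPKM steps, 9 members were called, beside 10.7% of all genes, the 4 above among them. With the replicate number as a block within each line MAP1LC3B joined the 4, beside 3.50% of all genes.

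**Figure D2:**
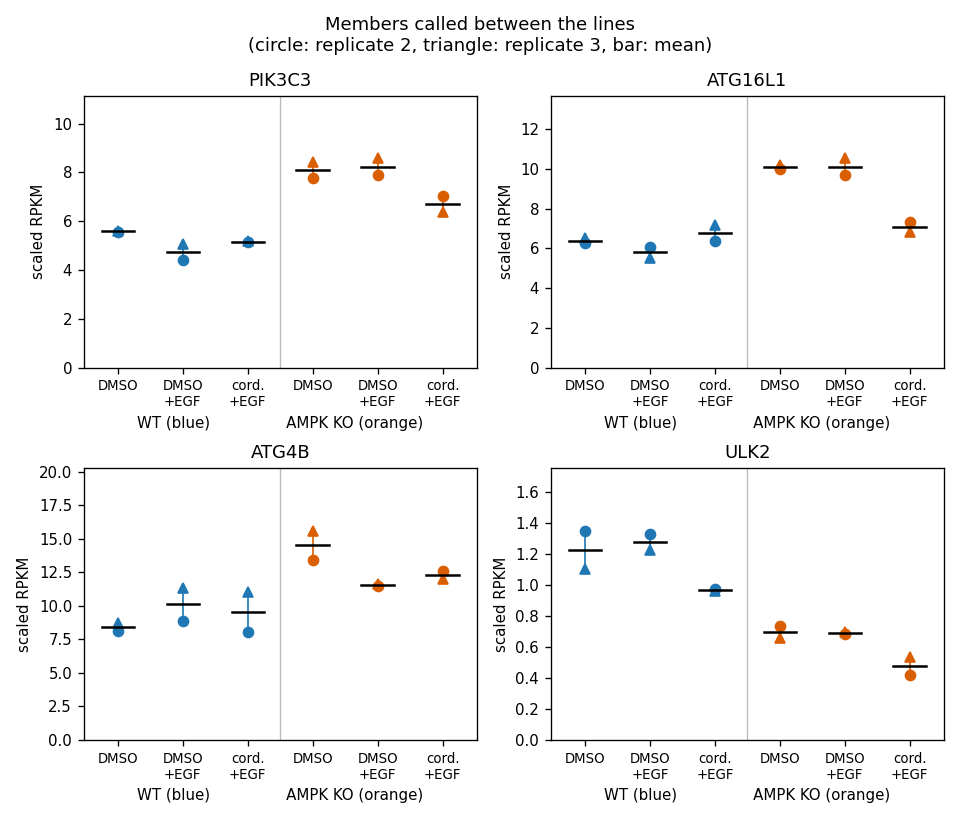
Scaled RPKM of the 4 members called between the lines, by line and treatment, with a circle for replicate 2, a triangle for replicate 3 and a bar for the mean of 2. PIK3C3, ATG4B and ULK2 separate all WT from all AMPK KO libraries, and ATG16L1 does so except with cordycepin+EGF.

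In the ULK complex, which starts autophagy, 1 of 5 members was called. ULK1, the kinase itself, in WT stood at 6.73 and 13.004 RPKM with DMSO, 12.8 and 11.4 with DMSO+EGF and 15.5 and 17.2 with cordycepin+EGF. ULK1 in AMPK KO stood at 20.1 and 21.5 RPKM with DMSO, 16.5 and 18.9 with DMSO+EGF and 15.3 and 12.4 with cordycepin+EGF. The AMPK KO libraries were above WT with DMSO and with DMSO+EGF and below it with cordycepin+EGF, and WT DMSO replicate 2 was the lowest of all. The log2 fold change was 0.47 (95% interval 0.14 to 0.80, adjusted p = 0.11). With ULK1 not called and ULK2 lower, the ratio of ULK1 to ULK2 ran from 4.97 to 17.9 in WT and from 23.2 to 36.4 in AMPK KO, with no overlap. ULK2, at a mean of 0.891 RPKM, separated the lines by itself, so this ratio is not a separate result. ATG13, the regulatory subunit, RB1CC1 (FIP200), the scaffold, and ATG101 had log2 fold changes of -0.00, -0.06 and -0.14, none of them called.

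Of the 6 genes of the VPS34 complexes, PIK3C3 alone was called and 5 were fitted above 0. BECN1, the beclin scaffold of the complex, in WT stood at 4.44 and 6.14 RPKM with DMSO, 4.62 and 5.19 with DMSO+EGF and 5.59 and 6.08 with cordycepin+EGF. BECN1 in AMPK KO stood at 6.56 and 6.82 RPKM with DMSO, 6.34 and 6.998 with DMSO+EGF and 5.46 and 5.74 with cordycepin+EGF. With DMSO and with DMSO+EGF the AMPK KO libraries were above WT, and with cordycepin+EGF they overlapped. The log2 fold change of BECN1 was 0.23 (95% interval 0.02 to 0.43, adjusted p = 0.20). PIK3R4 (VPS15), the regulatory subunit, had 0.26 (95% interval 0.10 to 0.42, adjusted p = 0.074), while ATG14 and UVRAG, which take turns in the complex, had 0.04 and 0.01. AMBRA1, an activator of BECN1, in WT stood at 5.47 and 2.39 RPKM with DMSO, 5.64 and 5.07 with DMSO+EGF and 2.60 and 2.46 with cordycepin+EGF. AMBRA1 in AMPK KO stood at 2.09 and 2.44 RPKM with DMSO, 2.81 and 2.58 with DMSO+EGF and 2.75 and 3.95 with cordycepin+EGF. In WT, 3 of the 4 libraries without cordycepin were above all others, whereas WT DMSO replicate 3 lay with the WT cordycepin and most AMPK KO libraries. Its log2 fold change was -0.38 (95% interval -0.78 to 0.02, adjusted p = 0.27).

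None of the 5 lipid transfer and WIPI genes was called. ATG9A, the scramblase of the growing membrane, in WT stood at 11.0 and 11.5 RPKM with DMSO, 11.8 and 11.6 with DMSO+EGF and 13.4 and 9.16 with cordycepin+EGF. ATG9A in AMPK KO stood at 15.9 and 10.9 RPKM with DMSO, 11.5 and 13.5 with DMSO+EGF and 15.0 and 16.0 with cordycepin+EGF. The lines overlapped, and ATG9A had 0.26 (95% interval -0.01 to 0.52, adjusted p = 0.26). ATG2A, ATG2B, WIPI1 and WIPI2 ran from -0.15 (WIPI1) to 0.13 (ATG2B). Of the 6 conjugation enzymes, ATG16L1 and ATG4B were called. ATG5, whose conjugate with ATG12 works with ATG16L1, in WT stood at 7.76 and 7.67 RPKM with DMSO, 6.22 and 7.32 with DMSO+EGF and 6.01 and 8.43 with cordycepin+EGF. ATG5 in AMPK KO stood at 7.66 and 8.57 RPKM with DMSO, 8.19 and 7.75 with DMSO+EGF and 6.16 and 5.57 with cordycepin+EGF. With DMSO+EGF the AMPK KO libraries lay above those of WT, and with DMSO and with cordycepin+EGF the lines overlapped. ATG5 had a log2 fold change of 0.01 (95% interval -0.20 to 0.22, adjusted p = 0.97). ATG3 and ATG7, the E2-like and E1-like enzymes, and ATG12 had -0.01, 0.18 and 0.06.

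All 4 ATG8 genes were fitted above 0 and none was called. MAP1LC3B in WT stood at 16.9 and 27.3 RPKM with DMSO, 16.1 and 21.5 with DMSO+EGF and 22.8 and 27.5 with cordycepin+EGF. MAP1LC3B in AMPK KO stood at 31.0 and 35.2 RPKM with DMSO, 33.2 and 33.3 with DMSO+EGF and 18.8 and 19.6 with cordycepin+EGF. The 4 AMPK KO libraries without cordycepin were above every WT library and the 2 with cordycepin fell among WT, so that the mean log2 fold change was 0.35 (95% interval 0.07 to 0.64, adjusted p = 0.16). GABARAPL1 in WT stood at 4.68 and 9.23 RPKM with DMSO, 4.93 and 5.36 with DMSO+EGF and 8.43 and 9.90 with cordycepin+EGF. GABARAPL1 in AMPK KO stood at 10.6 and 10.3 RPKM with DMSO, 10.2 and 10.7 with DMSO+EGF and 5.15 and 4.82 with cordycepin+EGF. Here too the 4 AMPK KO libraries without cordycepin were above every WT library, WT DMSO replicate 3 was far above its partner, and the log2 fold change was 0.26 (95% interval -0.06 to 0.58, adjusted p = 0.34). GABARAP in WT stood at 13.01 and 11.7 RPKM with DMSO, 8.28 and 11.9 with DMSO+EGF and 7.77 and 5.79 with cordycepin+EGF. GABARAP in AMPK KO stood at 11.7 and 8.69 RPKM with DMSO, 10.7 and 10.7 with DMSO+EGF and 9.47 and 11.3 with cordycepin+EGF. It was lowest in WT with cordycepin, and its log2 fold change was 0.14 (95% interval -0.14 to 0.42, adjusted p = 0.57), near the 0.14 of GABARAPL2.

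Of the 3 cargo receptors none was called. SQSTM1 in WT stood at 8.01 and 9.96 RPKM with DMSO, 9.90 and 10.3 with DMSO+EGF and 11.8 and 14.5 with cordycepin+EGF. SQSTM1 in AMPK KO stood at 12.1 and 14.2 RPKM with DMSO, 11.2 and 11.4 with DMSO+EGF and 9.67 and 8.70 with cordycepin+EGF. The cordycepin libraries were the highest of WT and the lowest of AMPK KO, and the log2 fold change of SQSTM1 over the 3 treatments was 0.06 (95% interval -0.13 to 0.25, adjusted p = 0.72). NBR1, a receptor related to SQSTM1, and OPTN (optineurin) had 0.18 and -0.05. Among the transcription factors and the folliculin complex none of 5 was called either. TFEB in WT stood at 0.641 and 0.700 RPKM with DMSO, 0.766 and 0.863 with DMSO+EGF and 0.845 and 0.891 with cordycepin+EGF. TFEB in AMPK KO stood at 0.761 and 0.652 RPKM with DMSO, 0.672 and 0.589 with DMSO+EGF and 0.745 and 0.682 with cordycepin+EGF. The lines overlapped at a level under 1 RPKM, and the log2 fold change of TFEB was -0.12 (95% interval -0.32 to 0.09, adjusted p = 0.52). TFE3, FLCN (folliculin), FNIP1 and FNIP2 had 0.10, 0.07, -0.09 and -0.25.

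The 5 lysosomal genes had a median log2 fold change of -0.13, with 4 fitted below 0 and none called. LAMP1 in WT stood at 37.7 and 51.6 RPKM with DMSO, 32.2 and 32.9 with DMSO+EGF and 63.4 and 46.8 with cordycepin+EGF. LAMP1 in AMPK KO stood at 56.2 and 48.0 RPKM with DMSO, 49.8 and 55.1 with DMSO+EGF and 49.5 and 36.9 with cordycepin+EGF. It was lowest in WT with DMSO+EGF and highest in a WT cordycepin library, with a log2 fold change of 0.19 (95% interval -0.08 to 0.46, adjusted p = 0.41). LAMP2, its partner in the membrane, in WT stood at 16.7 and 16.2 RPKM with DMSO, 14.5 and 11.6 with DMSO+EGF and 16.3 and 10.8 with cordycepin+EGF. LAMP2 in AMPK KO stood at 11.8 and 8.65 RPKM with DMSO, 11.96 and 12.5 with DMSO+EGF and 12.02 and 12.2 with cordycepin+EGF. AMPK KO DMSO replicate 3 was the lowest of all. The other AMPK KO libraries lay above the 2 lowest WT libraries and below the remaining WT libraries, and LAMP2 had -0.29 (95% interval -0.56 to -0.03, adjusted p = 0.20). CTSB, the cysteine protease cathepsin B, in WT stood at 11.1 and 9.31 RPKM with DMSO, 10.3 and 10.7 with DMSO+EGF and 12.6 and 11.3 with cordycepin+EGF. CTSB in AMPK KO stood at 8.54 and 9.26 RPKM with DMSO, 8.34 and 7.89 with DMSO+EGF and 10.8 and 10.7 with cordycepin+EGF. Within each treatment the AMPK KO libraries lay below those of WT, and CTSB had -0.23 (95% interval -0.38 to -0.07, adjusted p = 0.11). CTSD, the aspartic protease cathepsin D, in WT stood at 2.70 and 6.65 RPKM with DMSO, 4.62 and 4.52 with DMSO+EGF and 8.79 and 7.70 with cordycepin+EGF. CTSD in AMPK KO stood at 5.33 and 6.80 RPKM with DMSO, 4.38 and 5.32 with DMSO+EGF and 5.21 and 3.29 with cordycepin+EGF. The 2 WT DMSO libraries were far apart, with replicate 2 the lowest of all, and CTSD had -0.13 (95% interval -0.58 to 0.32, adjusted p = 0.76). MCOLN1 had -0.11.

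**Figure D3:**
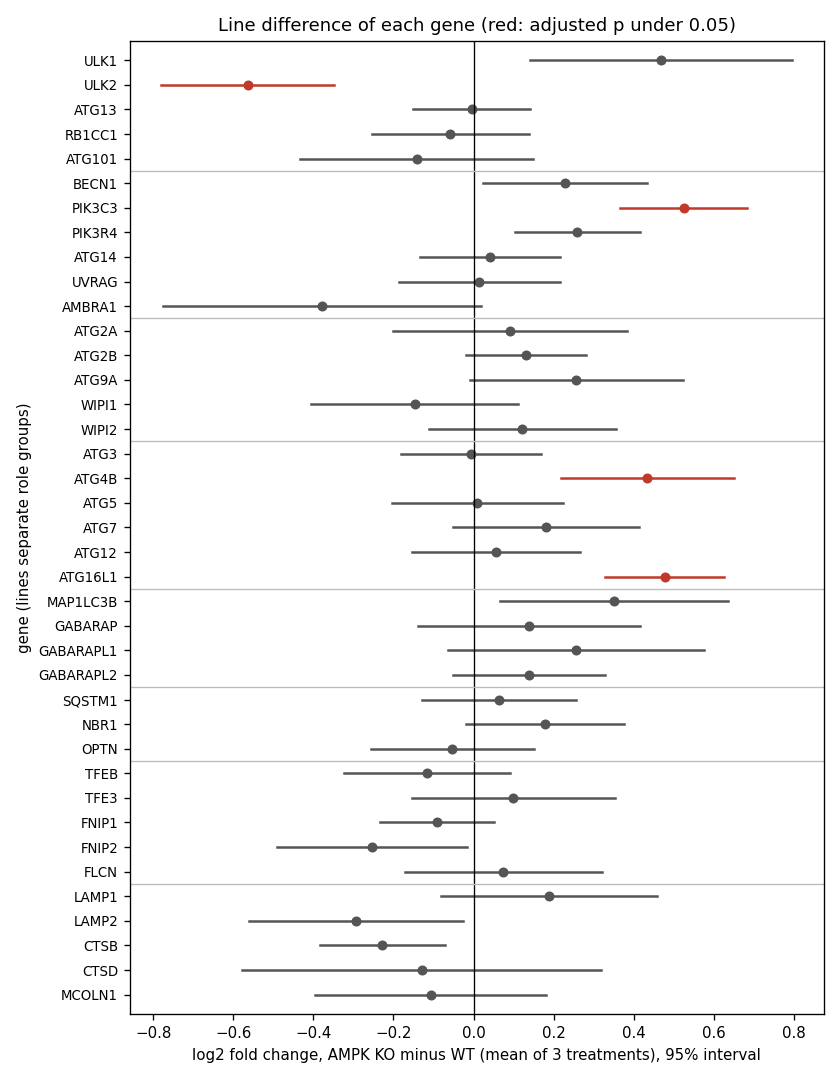
Each point is the log2 fold change of a member, AMPK KO minus WT over the mean of 3 treatments, with its 95% interval and grey lines between role groups. PIK3C3, ATG16L1, ATG4B and ULK2, in red, passed an adjusted p under 0.05, and the intervals of most others include 0.

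The line difference was then taken within each treatment, since several members changed sides. With DMSO no member was called (0.440% of all genes were), and 13 had an unadjusted p under 0.05, beside 21.3% of all genes. ULK1 had the highest log2 fold change, 1.11 (95% interval 0.54 to 1.68, adjusted p = 0.075), which was 0.66 without WT DMSO replicate 2 and 1.56 without replicate 3, and LAMP2 the lowest, -0.68 (95% interval -1.14 to -0.21, adjusted p = 0.13). Across the 39 members this difference went up with the share of G and C in the annotated transcripts (Spearman's rho 0.42). Over 22044 genes rho was 0.31. ULK1 had the highest share of the members (64.1%) and LAMP2 the lowest (38.0%), and the part of base composition in these values was not tested. ATG16L1 came nearest to the threshold at 0.62 (95% interval 0.36 to 0.88, adjusted p = 0.054). Without WT DMSO replicate 3, 12 members were called beside 13.9% of all genes, and voom on the recovered reads called 10 beside 8.18%.

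With DMSO+EGF, 2 members were called, beside 1.74% of all genes. They were ATG16L1, at 0.75 (SE 0.11, adjusted p = 0.024) on the log2 scale, and PIK3C3, with 0.74 (SE 0.12, adjusted p = 0.030), both higher in AMPK KO. GABARAPL1 had the highest value of all members, 0.96 (95% interval 0.40 to 1.51, adjusted p = 0.076), and AMBRA1 the lowest, -0.87 (95% interval -1.56 to -0.18, adjusted p = 0.14). COL1A1 was also called, lower in AMPK KO at -0.92 (adjusted p = 0.0499), with 1.20 and 1.16 RPKM in WT and 0.398 and 0.376 RPKM in AMPK KO, while PTPRC and VWF were near 0 in every library. The part of other cell types in the line difference was not tested. The count was 10 when either WT DMSO library was left out (10.7% of all genes in both cases) and 10 with voom on the recovered reads (11.5%). The WT DMSO libraries enter this comparison only through the shared estimate of the spread. The call of both genes was lost when any of the 4 libraries compared, or either AMPK KO DMSO library, was left out, and PIK3C3 also lost it without either WT cordycepin+EGF library. With the replicate number as a block within each line, PIK3C3 lost the call (adjusted p = 0.054) and MAP1LC3B gained one, beside 1.05% of all genes. With only the groups compared 8 members were called, beside 10.0% of all genes.

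With cordycepin+EGF no member was called (0.118% of all genes were), and 9 had an unadjusted p under 0.05 beside 13.7%. Here 26 of 39 members were fitted below 0, and the median was -0.17, against 0.17 with DMSO and 0.13 with DMSO+EGF. Over all genes tested these medians were 0.01, 0.01 and -0.00. CTSD had the lowest log2 fold change, -0.91 (95% interval -1.69 to -0.13, adjusted p = 0.31), and GABARAP the highest, 0.59 (95% interval 0.11 to 1.07, adjusted p = 0.30). GABARAPL1 had -0.81 (95% interval -1.37 to -0.26, adjusted p = 0.25) and was the 1 member called when either WT DMSO library was left out, beside 0.344% of all genes. With voom on the recovered reads GABARAPL1 and ULK2 were called, both lower in AMPK KO, beside 1.59%.

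EGF was compared with DMSO alone within each line to ask how the growth factor moves these genes within 30 min. No member was called in WT (0.0227% of all genes) or in AMPK KO (0.0136%). At an unadjusted p under 0.05 there were 3 members in WT, beside 9.72% of all genes, and 0 in AMPK KO, beside 2.42%. With voom on the recovered reads no member was called either, in WT (0.0549% of all genes) or in AMPK KO (0.0183%). In WT the ends were LAMP1 at -0.43 (95% interval -0.90 to 0.04, adjusted p = 0.52) and ATG101, the stabiliser of ATG13, at 0.56 (95% interval 0.06 to 1.07, adjusted p = 0.50). Without WT DMSO replicate 3 LAMP1 was at -0.21 and ATG101 at 0.34, and without replicate 2 they were at -0.66 and 0.78. ATG101 in WT stood at 1.44 and 0.930 RPKM with DMSO, 1.72 and 2.22 with DMSO+EGF and 2.20 and 2.75 with cordycepin+EGF. ATG101 in AMPK KO stood at 1.60 and 2.10 RPKM with DMSO, 1.14 and 1.38 with DMSO+EGF and 1.85 and 1.57 with cordycepin+EGF. With EGF it was above DMSO in WT and below it in AMPK KO, without overlap in either line, from as few as 12 reads in a library. The same order held for ATG4B (5.37% of all genes), and the reverse for RB1CC1, ATG3 and LAMP2 (5.17%). In AMPK KO the ends were ATG101 at -0.41 (95% interval -0.92 to 0.09, adjusted p = 1.00) and LAMP2 at 0.27 (95% interval -0.20 to 0.73, adjusted p = 1.00). The test of the difference between the lines called no member and no gene (0% of all genes), also with voom, and 3 members had an unadjusted p under 0.05 beside 8.69%. That difference was lowest for ATG101, -0.97 (95% interval -1.69 to -0.26, adjusted p = 0.57), and highest for LAMP2, 0.60 (95% interval -0.06 to 1.26, adjusted p = 0.59).

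Base composition moved with these EGF values. Across the 39 members, the log2 fold change with EGF in WT went up with the share of G and C in the annotated transcripts (Spearman's rho 0.71) and in AMPK KO it went down (-0.61). Over 22044 genes rho was 0.38 and -0.32, so the relation was not limited to the members. Genes of 1 library share its preparation and are not independent, and the part of base composition in the EGF values was not tested. When WT DMSO replicate 2 was left out, AMBRA1 (higher with EGF) and GABARAPL1 (lower) were called in WT, beside 3.18% of all genes. Without WT DMSO replicate 3 no member was called for EGF in WT (0.0181% of all genes) or for the difference between the lines (0%).

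Cordycepin+EGF was compared with DMSO+EGF within each line to ask whether the response to cordycepin depends on AMPK. In WT no member was called (0.00453% of all genes), and 7 had an unadjusted p under 0.05 beside 16.0%. In AMPK KO no member was called either (0.471% of all genes), and 14 had an unadjusted p under 0.05, 13 of them below 0, beside 21.8%. The median of the members was 0.11 in WT and -0.22 in AMPK KO, against 0.03 and 0.06 over all genes. Without WT DMSO+EGF replicate 2 the median in WT was 0.03, the same as over all genes in the full fit. The highest in WT were CTSD, 0.78 (95% interval 0.01 to 1.56, adjusted p = 0.31), GABARAPL1, 0.77 (95% interval 0.22 to 1.33, adjusted p = 0.27), and LAMP1, 0.73 (95% interval 0.27 to 1.20, adjusted p = 0.27). AMBRA1 was the lowest in WT, -0.95 (95% interval -1.64 to -0.26, adjusted p = 0.27). In AMPK KO the lowest was GABARAPL1, -0.9998 (95% interval -1.55 to -0.45, adjusted p = 0.082), and the highest CTSB, 0.38 (95% interval 0.11 to 0.65, adjusted p = 0.12).

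The order of libraries was opposite in the 2 lines for 13 of the 39 members. For 12 of them, both cordycepin libraries lay above both DMSO+EGF libraries in WT and below them in AMPK KO, against 9.06% of all genes tested. They were ULK1 and RB1CC1 of the ULK complex, BECN1 and PIK3C3 of the lipid kinase complex, ATG2B and WIPI2, ATG16L1, the ATG8 genes MAP1LC3B and GABARAPL1, SQSTM1, TFE3 and LAMP1. The reverse held for ATG13 alone, against 10.1% of all genes. TFE3 in WT stood at 9.74 and 15.1 RPKM with DMSO, 11.2 and 12.7 with DMSO+EGF and 14.1 and 16.8 with cordycepin+EGF. TFE3 in AMPK KO stood at 16.1 and 18.4 RPKM with DMSO, 15.1 and 17.3 with DMSO+EGF and 9.85 and 10.0 with cordycepin+EGF. As for GABARAPL1 and MAP1LC3B, the cordycepin libraries of AMPK KO were among the lowest of all. Across the 39 members the cordycepin values of the 2 lines had Pearson's r of -0.39 (Spearman's rho -0.32), and over all 22067 genes r was -0.03 (rho -0.10). These values share no library between the lines, but the genes of each value share their 4 libraries. TFE3 is named here after its values were seen, as are RB1CC1 and NBR1.

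**Figure D4:**
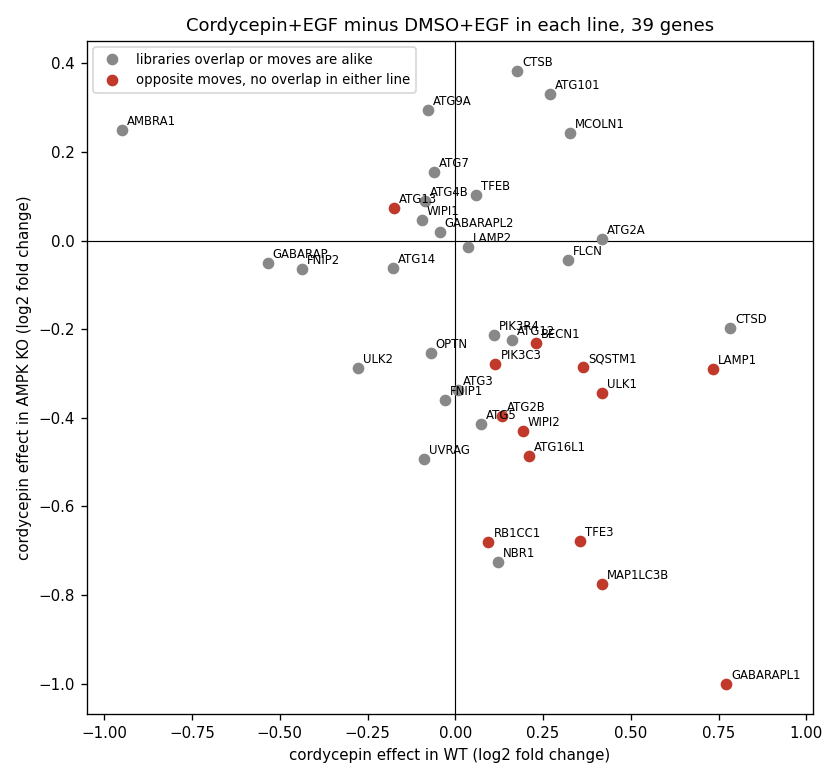
Each point is a member, with the log2 fold change of cordycepin+EGF against DMSO+EGF in WT on the horizontal and in AMPK KO on the vertical axis. The 13 red points are members with opposite orders of libraries in the 2 lines and no overlap, and 12 of them lie at the lower right.

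The difference of the cordycepin effect between the lines was tested as an interaction, AMPK KO minus WT. No member and no gene passed an adjusted p under 0.05 (0% of all genes), and 12 members had an unadjusted p under 0.05, 11 of them below 0, beside 21.4% of all genes. GABARAPL1 had the lowest value, -1.77 (95% interval -2.56 to -0.99, adjusted p = 0.12), followed by MAP1LC3B, -1.19 (95% interval -1.89 to -0.49, adjusted p = 0.12), TFE3, -1.03 (95% interval -1.65 to -0.41, adjusted p = 0.12), and LAMP1, -1.02 (95% interval -1.69 to -0.36, adjusted p = 0.13). AMBRA1 was the highest, 1.20 (95% interval 0.23 to 2.17, adjusted p = 0.17). NBR1 had -0.85, RB1CC1 -0.78 and ATG16L1 -0.70, with adjusted p between 0.12 and 0.13. The median of the members was -0.34 (0.02 over all genes), and 26 of 39 were fitted below 0. With the G and C share of the transcripts this interaction had rho of -0.01 over the members and -0.02 over all genes, and with exon length -0.004 and -0.03. The cordycepin effects that form it had rho with the G and C share of 0.37 in WT and 0.35 in AMPK KO over the members. Over all genes these were 0.17 and 0.13. With exon length they were -0.05 and -0.08 over the members and -0.16 and -0.18 over all genes. The part of base composition and length was not tested.

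The calls of the cordycepin comparisons turned on the estimate of the spread. Leaving out either WT DMSO library, which is in neither contrast, gave 6 called members in AMPK KO (beside 6.12% of all genes without replicate 3 and 6.16% without replicate 2) and 9 for the interaction (9.09% and 9.06%). The 6 were ATG16L1, TFE3, RB1CC1, GABARAPL1, MAP1LC3B and NBR1, all lower with cordycepin, and the 9 were these with LAMP1 and ULK1 below 0 and AMBRA1 above. With only the groups compared the interaction was called for 5 members, beside 5.11% of all genes. With voom on the recovered reads, 3 members were called in WT (GABARAPL1 and LAMP1 higher, AMBRA1 lower, beside 3.98% of all genes), the same 6 in AMPK KO (5.18%) and 8 for the interaction (9.63%). With all 12 libraries and the stated test, none of these passed the correction over all genes tested, so these differences were not established.

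**Figure D5:**
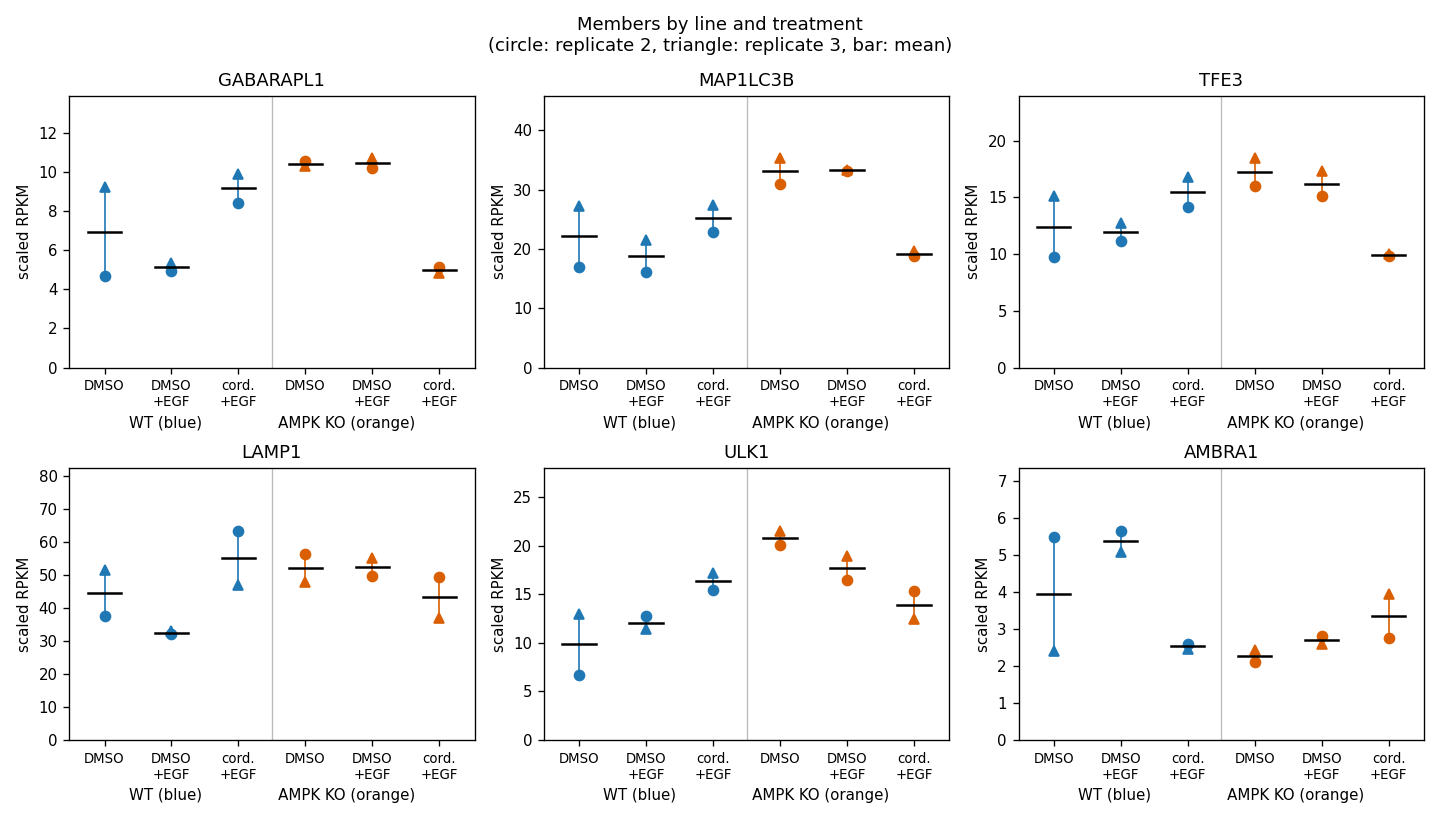
Scaled RPKM of 6 members by line and treatment, with a circle for replicate 2, a triangle for replicate 3 and a bar for the mean of 2. In the first 5 the cordycepin libraries lie above DMSO+EGF in WT and below it in AMPK KO, AMBRA1 shows the reverse order with overlap in AMPK KO, and the WT DMSO replicates lie far apart.

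Other genes of the same pathways were read from 4 further lists. Their counts stand beside the 4.34% of all genes called for the line mean, 1.74% with DMSO+EGF and 0.471% for cordycepin in AMPK KO. Of 30 other autophagy genes 29 were tested, and TBC1D5, a retromer-associated protein, with 0.46 (SE 0.08, adjusted p = 0.015), and EPG5, a tether for the fusion of autophagosomes with lysosomes, with 0.39 (SE 0.08, adjusted p = 0.026), were higher in AMPK KO over the mean of 3 treatments. Of 34 other lysosomal enzymes 32 were tested and 25 were fitted below 0, with a median of -0.17. LGMN, the protease legumain, was the 1 called, lower in AMPK KO at -0.56 (SE 0.11, adjusted p = 0.028), a share of the list below that of all genes. Of 25 other lysosomal membrane and mTORC1 docking genes, IGF2R, the receptor for mannose-6-phosphate, with 0.37 (SE 0.08, adjusted p = 0.032), and NPC1, a cholesterol exporter, with 0.33 (SE 0.08, adjusted p = 0.048), were higher. Within single treatments TBC1D5 was higher in AMPK KO with DMSO+EGF, 0.83 (SE 0.14, adjusted p = 0.031), SGSH, the enzyme sulfamidase, was lower there, -0.82 (SE 0.15, adjusted p = 0.042), and CTSH, cathepsin H, was higher with cordycepin in AMPK KO, 1.15 (SE 0.19, adjusted p = 0.049); these were named after their values were seen. None of the 17 subunits of the V-ATPase, the proton pump of the lysosome, was called in any comparison. All 17 were fitted above 0 with cordycepin in WT, as were 53.5% of all genes. In AMPK KO 13 of 17 were fitted below 0, whereas 55.1% of all genes were above it. The medians of the 17 were 0.19 and -0.26, and within each contrast these genes share the same libraries and are not independent. The medians of the other autophagy genes in these contrasts were 0.09 and -0.22, and those of the other lysosomal enzymes 0.06 and 0.19.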

How the data were processed

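Total RNA of 12 HEK293 samples was sequenced as ribosome-depleted stranded libraries with paired 150-base reads. Per the study's methods, the authors mapped reads to GRCh38.p13, counted them with Rsubread and deposited RPKM per gene and library; they left out a first replicate as an outlier, which is not analysed here. The submitters' processing notes name GRCh38.p13, hg38 and FastQC. Strand setting was not stated, and the study calls the replicates biological without saying that they were separate cultures, so p-values may measure technical spread.

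Of 26058 Ensembl identifiers, 26029 matched GENCODE 44; 2 rows that name no gene were left out. RPKM was scaled to a common upper quartile, filtered at a mean of 0.5 and tested as log2(RPKM + 0.5), which understates changes of low genes, in 1 limma 3.58.1 fit (R 4.3.3, group means, variance trend, two-sided, Benjamini-Hochberg within each of 10 comparisons). Whole reads were recovered from the RPKM steps within 0.05 read for 25082 genes (96.25%) at the annotated length. For the rest the shortest length that gave whole reads was taken, which may be wrong, for 25783 genes (98.94%) in all. These reads gave depth and an added limma voom fit. Scripts were tested on simulated data.

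Values in every library are given for members called in any comparison, an anchor of each role group and the highest and lowest member of each comparison; TFE3 was added after its values were seen, and RB1CC1 and NBR1 are named by fold change. Of other lists, up to 3 genes with the smallest adjusted p under 0.05 are named. Members and lists were chosen with earlier results of these data known. The replicate 3 minus replicate 2 differences of 2 groups were correlated across genes. Between treatments r was 0.136 to 0.314 in WT and -0.122 to 0.031 in AMPK KO. The highest r, 0.322, was between WT cordycepin+EGF and AMPK KO DMSO. In the main fit numbers were not taken as pairs. Alternatives changed the pseudocount, filter, scaling, block, variance model, groups fitted and each library in turn.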

Additional observations from a re-analysis of the deposited data

Results flagged for a closer look

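With cordycepin, 13 members had opposite orders of libraries in the 2 lines, without overlap between cordycepin+EGF and DMSO+EGF libraries. Of these, 12 were higher with cordycepin in WT and lower with it in AMPK KO, as were 9.06% of all genes, and 1 had the reverse order, as had 10.1%. The interaction, the log2 fold change in AMPK KO minus that in WT, was -1.77 for GABARAPL1, -1.19 for MAP1LC3B, -1.03 for TFE3, -1.02 for LAMP1, -0.78 for RB1CC1, -0.76 for ULK1 and -0.70 for ATG16L1. It was -0.65 for SQSTM1, -0.62 for WIPI2, -0.53 for ATG2B, -0.46 for BECN1 and -0.39 for PIK3C3, and 0.25 for ATG13, the 1 member with the reverse order. The interaction test gave none of them an adjusted p under 0.05 in limma.

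With EGF, 5 members had opposite orders in the 2 lines without overlap between DMSO+EGF and DMSO libraries. Of these, 2 were higher with EGF in WT and lower with it in AMPK KO and 3 the reverse, against 5.37% and 5.17% of all genes, a share near the background. The interaction was -0.97 for ATG101, -0.56 for ATG4B, 0.46 for RB1CC1, 0.29 for ATG3 and 0.60 for LAMP2, and none had an adjusted p under 0.05 in limma. The value in WT rests on WT DMSO, of which replicate 3 was the shallowest library.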

How the results depend on the processing

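Counts of called members changed most with the libraries and the variance model, and the median log2 fold change of the members stayed within 1 SD between replicates (0.0884) of its reported value in each alternative. That SD is as large as several of the medians, which ran from 0.03 to 0.11 for the line mean, 0.10 to 0.20 with DMSO, 0.10 to 0.18 with DMSO+EGF and 0.03 to 0.15 for cordycepin in WT. With limma voom on recovered reads the counts were 9 for the line mean (10.7% of all genes), 10 with DMSO (8.18%), 10 with DMSO+EGF (11.5%) and 2 with cordycepin+EGF (1.59%). For cordycepin the voom counts were 3 in WT (3.98%), 6 in AMPK KO (5.18%) and 8 for the line by cordycepin interaction (9.63%). With only the groups compared they were 8 with DMSO+EGF (10.0% of all genes) and 5 for that interaction (5.11%). Leaving out 1 library also moved single values: GABARAP with cordycepin+EGF was 0.39 to 0.78 between the lines, EGF in AMPK KO gave -0.56 to -0.26 for ATG101 and 0.05 to 0.48 for LAMP2, and cordycepin gave 0.21 to 0.62 for MAP1LC3B in WT and -0.50 to -0.08 for LAMP1 in AMPK KO. Leaving out 1 library gave 2 to 10 called members for the line mean, 0 to 12 with DMSO, 0 to 10 with DMSO+EGF, 0 to 1 with cordycepin+EGF, 0 to 2 for EGF in WT, 0 to 6 for cordycepin in AMPK KO and 0 to 9 for the line by cordycepin interaction. The highest of each range came without a WT DMSO library. In those fits the share of all genes called, given above, was also higher than with all libraries. The count for the line mean was 2 (PIK3C3 and ATG16L1) without AMPK KO DMSO replicate 3, either AMPK KO DMSO+EGF library or WT DMSO+EGF replicate 2. The log2 fold change of ATG5 between the lines, 0.01, turned to -0.012, -0.066, -0.016, -0.0028 and -0.027 in 5 of the 12 fits without 1 library, within a range of -0.066 to 0.086. The replicate block left the count for the line mean at 4, and a block within each cell line gave 5, adding MAP1LC3B; no other count changed by over 1.5 times. With that block PIK3C3 lost its call with DMSO+EGF (adjusted p = 0.054, limma) and MAP1LC3B gained one. The cause of these changes was not tested, and depth limits WT DMSO replicate 3 most.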
